A study of Arabis alpina with 23 samples.

Results

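The comparison described here asks which genes of the perennial Arabis alpina answered the first 4 weeks at 4 °C differently in axillary buds (AB) than in the shoot apical meristem (SAM). It is the interaction of tissue and stage: the change from stage 2 to stage 3 in buds minus the same change in apices, on the log2 scale. The members are the 12 libraries that this contrast uses, of 23 in the series, with 3 libraries in each of 4 groups. Stage 3 AB and stage 3 SAM came from plants of the Pajares accession after 4 weeks of cold, and stage 2 AB and stage 2 SAM from 8-week-old plants of the same accession with no cold treatment named. Seeds of all groups were stratified in the cold and dark, and plants grew in long days of 16 hours of light at 24 °C by day and 18 °C by night. Buds carried 1 leaf primordium and meristems were taken with 1, per the labels, and each replicate pooled 120 to 150 of them. The labels do not give the age of stage 3 plants, so age and cold cannot be told apart. The labels call the replicates biological, but name no plants or batches behind them. In pooled tissue, fewer cells of a type and less RNA per cell cannot be told apart either.

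As background, Arabis alpina is a perennial relative of Arabidopsis thaliana that needs prolonged cold, vernalization, to flower. In the cold the shoot apex goes from making leaves to making flowers, while many axillary buds stay vegetative and carry the plant into the next season. Floral repressors of the FLC and AP2 families hold the apex vegetative, and SPL factors of the age pathway, SOC1, FUL and LFY promote flowering. Cytokinin keeps stem cells dividing, auxin patterns organs and holds back buds, and gibberellin drives growth and, in many species, flowering.

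A positive interaction means that a gene rose more, or fell less, in the bud than in the apex, and a negative one the reverse. It does not say which tissue changed, so the change of each tissue is given beside it. Levels are given as CPM, the reads counted for a gene per megaread after library scaling, and changes are log2 values ± standard error (SE) from edgeR's quasi-likelihood test. A gene is called where its p-value, adjusted over all 21414 genes tested by Benjamini-Hochberg, is at most 0.05. Genes are named by the descriptions in the files, which several genes can share, and coordinates are those of the version 5 assembly in the deposited annotation.

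The 12 libraries held 12.2 to 18.6 megareads of counted reads, with 14.2 to 14.8 in stage 3 AB, 14.1 to 14.5 in stage 2 AB, 12.2 to 18.2 in stage 3 SAM and 16.3 to 18.6 in stage 2 SAM. Replicates of a group correlated at 0.984 to 0.993. The first principal component of the 12 libraries held 57.4% of the variance and separated buds from apices. The meristem gene STM (Aa_G408930) was present in both tissues, at 122, 132 and 151 CPM in stage 3 AB, against 118, 122 and 122 CPM in stage 2 AB. In apices, STM had 134, 152 and 206 CPM at stage 3, against 148, 134 and 157 CPM at stage 2. Its interaction was 0.00 ± 0.16 and was not called, with an adjusted p of 1. WUS (Aa_G197460) and CLV3 (Aa_G155810) were lower in every stage 3 bud library than at stage 2, while their apex stages overlapped. WUS was higher in buds than in apices at both stages, without overlap. Its interaction was not called, except without stage 2 SAM replicate 3 (-1.42, adjusted p = 0.0431). The stages of KNAT1 (Aa_G90040) overlapped in both tissues, with buds below apices at stage 2.

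Of the 21414 genes tested, 997 (4.66%) were called in the interaction. A positive interaction was called for 569 (2.66%) and a negative one for 428 (2.0%). Within a stage, AB and SAM libraries of the same replicate number deviated together, and a fit that pairs them, added after the data were seen, called 1702 genes (7.95%), of which 906 were positive and 796 negative and which included 942 of the 997. DESeq2 called 1574 (7.35%). The 12 libraries alone gave 666 calls of 20537 genes tested (3.24%), 459 positive and 207 negative. Counts below come from the unpaired edgeR fit of all 23 libraries unless another fit is named. For limma on log2 TPM, an alternative named below, no share of all genes is given, so its counts of list members have no background. In the bud step itself 4764 genes (22.2%) were called, with 10.2% of all genes up and 12% down. In the apex step 5196 (24.3%) were called, with 11.9% up and 12.3% down. Of the 1892 genes called in both steps, 1816 (96.0%) changed in the same direction in both. Over all genes tested, called or not, the 2 steps correlated at 0.26 (Pearson) and 0.42 (Spearman). Among the 997 interaction genes, only the apex step was called for 550, only the bud step for 302 (155 of the 666 with the 12 libraries alone), both steps in opposite directions for 76, both in the same direction for 48 and neither for 21. Of all genes tested, 3304 were called in the apex step only and 2872 in the bud step only. Of these, 16.65% and 10.52% were called in the interaction. The largest class of interaction genes was 355 that fell in the apex with no called change in the bud. Another 195 rose in the apex alone, 169 fell in the bud alone and 133 rose in the bud alone. The opposite class held 37 genes that rose in the bud and fell in the apex, and 39 that fell in the bud and rose in the apex. These classes use the same libraries as the interaction and describe it. The median size of the called interactions was 0.90, against 0.23 over all genes tested. Just inside the threshold lay Aa_G339050 with an interaction of 1.73 (adjusted p = 0.05), and just outside it Aa_G617210 with 0.52 (adjusted p = 0.0502).

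The count of called genes moved with the libraries. Against 997 with all libraries, it was 563 without stage 3 AB replicate 1, 577 without stage 2 AB replicate 3, 574 without stage 3 SAM replicate 1, 631 without stage 3 SAM replicate 3 and 589 without stage 2 SAM replicate 1. Of the 997 genes, 385 kept their call and direction in each of the 12 fits that left out 1 library. Among the 76 genes with opposite steps, 65 did so, and of the 302 bud-only genes 89 did. Unless stated otherwise, called genes named below kept their call in all 12 fits. With the 12 libraries alone, the SNF7 family gene Aa_G130450, RGA1, the ARF3-like and CUC2-like genes, MAF3, LFY, AS1, sucrose phosphate synthase, PR1 and WRKY22, most of them described below, were not called.

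**Figure D1:**
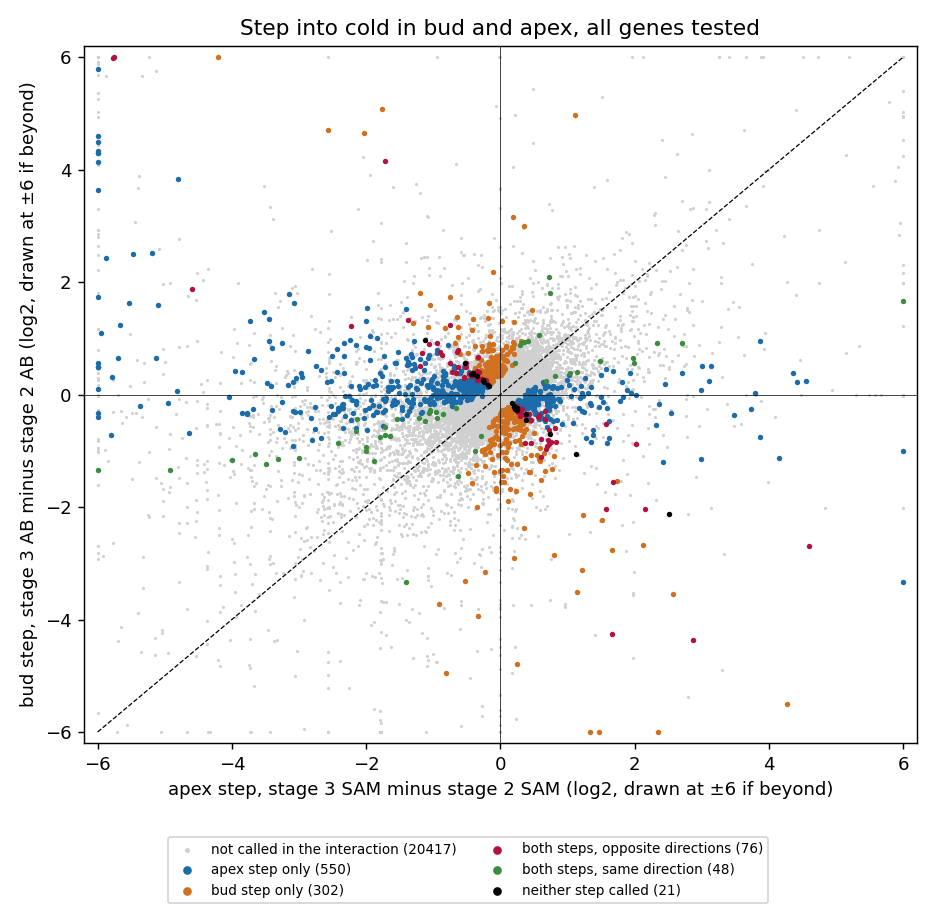
Change on entering cold of the 21414 genes tested, with the apex step (stage 3 SAM minus stage 2 SAM, log2) across and the bud step (stage 3 AB minus stage 2 AB, log2) upward; 148 genes beyond ±6 are drawn at 6. Grey points are genes not called in the interaction, and the dashed line marks equal change. Many grey points lie off that line: 2438 of all genes tested had an interaction of at least 1 in size, and 461 of these were called. The 550 genes of the apex step alone spread along the horizontal axis and the 76 opposite genes fill the upper left and lower right.

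In 76 genes the steps went in opposite directions. ATH1 (Aa_G58550; chromosome 7, 7023360 to 7024903, forward strand), a BELL-class homeobox factor that in Arabidopsis acts in the vegetative meristem, rose in buds and fell in apices. ATH1 had 76.5, 79.7 and 78.99 CPM in stage 3 AB, against 47.2, 58.8 and 59.8 CPM in stage 2 AB. In apices, ATH1 had 79.99, 79.6 and 58.1 CPM at stage 3, against 174, 165 and 162 CPM at stage 2. The stages did not overlap in either tissue, and the bud libraries, all below the apex libraries at stage 2, overlapped with them at stage 3. The bud step was 0.50 ± 0.12 and the apex step -1.20 ± 0.12, an interaction of 1.70 ± 0.16 (adjusted p = 9.08e-06).

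A cytokinin oxidase (Aa_G198500), of the family that degrades cytokinin, had 5.42, 12.01 and 11.1 CPM in stage 3 AB, against 5.004, 4.68 and 5.65 CPM in stage 2 AB. In apices, Aa_G198500 had 13.1, 18.4 and 13.3 CPM at stage 3, against 31.9, 34.8 and 27.01 CPM at stage 2. The apex libraries of the stages did not overlap, while 1 of 3 bud libraries of stage 3 lay within the stage 2 range. The interaction was 1.96 ± 0.32 (adjusted p = 0.00214). Cyclin delta-3 (Aa_G97330), a D-type cyclin that drives entry into the cell cycle, had 63.9, 62.8 and 77.4 CPM in stage 3 AB, against 56.9, 53.7 and 55.1 CPM in stage 2 AB. In apices, Aa_G97330 had 64.8, 71.8 and 66.3 CPM at stage 3, against 97.2, 90.7 and 109 CPM at stage 2. Stage 3 lay above stage 2 in every bud library and below it in every apex library, with an interaction of 0.85 ± 0.13 (adjusted p = 0.00106). A zinc finger family gene (Aa_G154160) changed its order between tissues: it had 23.9 to 28.9 CPM in stage 3 AB and 12.6 to 19.9 CPM in stage 2 AB, beside 13.9 to 20.1 CPM in stage 3 SAM and 29.01 to 31.4 CPM in stage 2 SAM. Buds were thus below apices at stage 2 and above them at stage 3, with no overlap at either stage.

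In the other direction, SPL10 (Aa_G61880; chromosome 1, 24233654 to 24235228, reverse strand), a squamosa promoter-binding-like factor of the age pathway, fell in buds and rose in apices. SPL10 had 11.8, 11.01 and 11.2 CPM in stage 3 AB, against 20.4, 24.7 and 19.3 CPM in stage 2 AB. In apices, SPL10 had 37.3, 33.3 and 52.5 CPM at stage 3, against 23.2, 28.7 and 23.9 CPM at stage 2. The tissues overlapped at stage 2 and were apart at stage 3, and the interaction was -1.62 ± 0.26 (adjusted p = 0.00196). Branched-chain amino acid aminotransferase 1 (Aa_G171350), an enzyme of branched-chain amino acid metabolism, had 11.6, 15.2 and 8.12 CPM in stage 3 AB, against 19.1, 24.2 and 20.7 CPM in stage 2 AB. In apices, Aa_G171350 had 9.56, 11.9 and 20.3 CPM at stage 3, against 3.31, 4.09 and 2.78 CPM at stage 2. Every stage 3 bud library was below stage 2 and every stage 3 apex library above it, an interaction of -2.89 ± 0.37 (adjusted p = 0.000296). An AP2/ERF domain factor (Aa_G683380) had 0.793, 3.403 and 3.39 CPM in stage 3 AB, against 16.2, 10.4 and 4.61 CPM in stage 2 AB. In apices, Aa_G683380 had 2.45, 3.46 and 3.56 CPM at stage 3, against 1.01, 1.25 and 0.846 CPM at stage 2. Its interaction of -3.62 ± 0.64 (adjusted p = 0.00368) came with stages that did not overlap in either tissue. An E3 ubiquitin ligase described as MARCH6 (Aa_G153960) went the same way, at 20.97 to 22.5 CPM in stage 3 AB and 33.6 to 58.1 CPM in stage 2 AB, beside 26.1 to 39.6 CPM in stage 3 SAM and 18.9 to 20.4 CPM in stage 2 SAM.

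**Figure D2:**
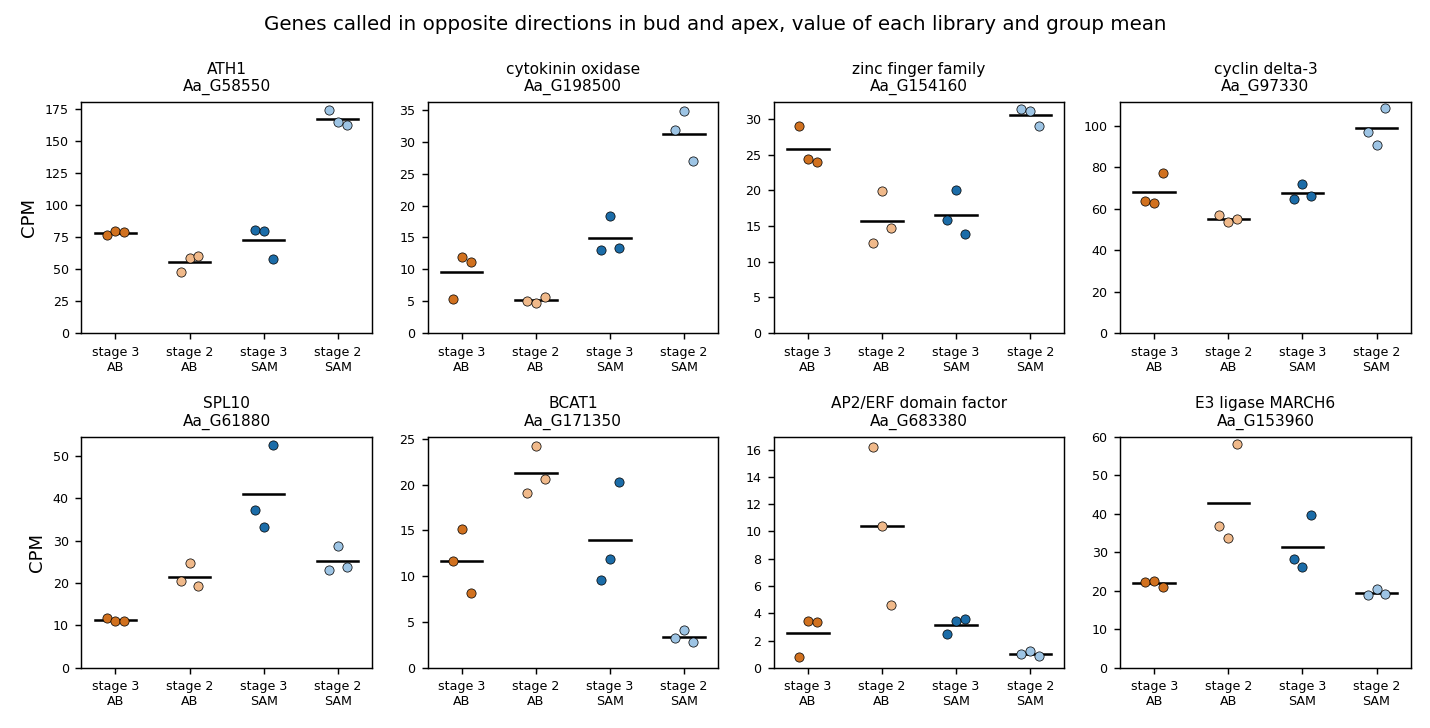
Normalised level (CPM, linear axis from 0) of 8 genes called in opposite directions in the bud step and the apex step; each point is 1 library, each horizontal line the mean of 3, in the order stage 3 AB, stage 2 AB, stage 3 SAM and stage 2 SAM. In the upper row stage 3 was higher in AB and lower in SAM, as for ATH1 (Aa_G58550), and in the lower row the reverse, as for SPL10 (Aa_G61880).

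The gene lists gave 106 of 1304 tested members called in the interaction (8.13%), against 4.66% of all genes tested, and 196 in the paired fit, against 7.95%. The lists were chosen with earlier results of these data known, so these shares describe the lists and test nothing. The cytokinin list held 7 positive and 1 negative calls among 38 tested members, and all 8 kept their call in every fit that left out 1 library. DESeq2 and the paired fit each called 8 positive and 3 negative. Its median interaction was 0.16, against -0.01 over all genes tested. The 7 positive ones of the unpaired fit were 5 response regulators and 2 cytokinin oxidases, and all 7 fell in the apex. Type-A response regulators are induced by cytokinin and damp its signal. The first ARR5 gene (Aa_G561390) had 14.9, 24.7 and 14.6 CPM in stage 3 AB, against 21.9, 21.9 and 22.5 CPM in stage 2 AB. In apices, Aa_G561390 had 1.56, 2.46 and 1.24 CPM at stage 3, against 9.65, 10.5 and 8.34 CPM at stage 2. The bud stages overlapped and the apex stages did not, with an interaction of 2.13 ± 0.31 (adjusted p = 0.000527). The second ARR5 gene (Aa_G762130) had 10.4 to 18.1 CPM in stage 3 AB and 11.6 to 18.4 CPM in stage 2 AB, beside 10.7 to 12.6 CPM in stage 3 SAM and 39.5 to 45.9 CPM in stage 2 SAM (interaction 1.62 ± 0.25). At stage 3 the 2 tissues overlapped in it, which they did not at stage 2.

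Another cytokinin oxidase (Aa_G273140; chromosome 5, 28259181 to 28261184, forward strand) fell in both tissues, and further in the apex. It had 32.04, 25.6 and 30 CPM in stage 3 AB, against 36.3, 41.3 and 41.2 CPM in stage 2 AB. In apices, Aa_G273140 had 25.2, 23.4 and 22.1 CPM at stage 3, against 115, 93.6 and 102 CPM at stage 2. The bud step was -0.44 ± 0.14 and the apex step -2.13 ± 0.14, an interaction of 1.69 ± 0.20 (adjusted p = 0.000129). The 1 negative member in the unpaired fit was LOG7 (Aa_G414840), whose product frees active cytokinin from its riboside phosphate. It had 6.805, 6.005 and 4.87 CPM in stage 3 AB, against 6.17, 5.73 and 7.47 CPM in stage 2 AB. In apices, Aa_G414840 had 3.33, 4.12 and 4.47 CPM at stage 3, against 1.12, 1.36 and 1.63 CPM at stage 2. Only the apex rose (apex step 1.53 ± 0.19), and its interaction was -1.66 ± 0.25 (adjusted p = 0.000732).

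The auxin list had 9 positive and 1 negative calls among 62 tested members, of which 6 and 1 kept their call in every such fit, and its median interaction was 0.25. The paired fit gave 8 positive and 4 negative calls and DESeq2 gave 9 and 5. In the apex 20 members fell and 5 rose, against 12 and 4 in the bud. The shares of all genes were 12.3% and 11.9% in the apex, against 12% and 10.2% in the bud. Aux/IAA proteins, which repress auxin-responsive transcription, made up 5 of the 9. IAA13 (Aa_G208750) had 37.5, 37.03 and 35.9 CPM in stage 3 AB, against 38.7, 34.4 and 31.7 CPM in stage 2 AB. In apices, IAA13 had 43.1, 45.4 and 40.4 CPM at stage 3, against 76.1, 66.8 and 92.6 CPM at stage 2. The bud stages overlapped and every stage 3 apex library was below stage 2, an interaction of 0.94 ± 0.13 (adjusted p = 0.000465). IAA27 (Aa_G304540) had an interaction of 0.76 ± 0.12 and an apex step of -0.73 ± 0.09. An auxin influx carrier (Aa_G172230), which imports auxin into cells, had 61.1 to 86.3 CPM in stage 3 AB and 66.8 to 77.5 CPM in stage 2 AB, beside 13.5 to 19.5 CPM in stage 3 SAM and 35.1 to 40.8 CPM in stage 2 SAM (interaction 1.33 ± 0.25). A GH3 gene (Aa_G161180), of a family that conjugates auxin to amino acids, was low throughout and had 1.25 to 2.54 CPM in stage 3 AB and 2.605 to 3.15 CPM in stage 2 AB, beside 0 to 0.133 CPM in stage 3 SAM and 1.81 to 2.67 CPM in stage 2 SAM. The 1 negative member in the unpaired fit, a gene like auxin response factor 3 (Aa_G305810), rose in the apex by 0.48 ± 0.09 with no called bud step (-0.10 ± 0.09).

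Among the floral repressors, 4 of 20 tested members were called positive and none negative at the threshold, while 10 had an unadjusted p of at most 0.05, which 21.1% of all genes tested had. DESeq2 and both limma fits on log2 TPM called 4 positive and 0 negative. The list's median interaction was 0.51. In the apex 8 members fell and none rose, and in the bud 2 fell and 2 rose. Of all genes, 12.3% fell and 11.9% rose in the apex, and 12% and 10.2% in the bud. Genes described as RAP2-7, known in Arabidopsis also as TOE1, an AP2-like repressor of flowering, were 3 of the 4. The one on chromosome 8 (Aa_G234670) had 112, 113 and 125 CPM in stage 3 AB, against 142, 134 and 145 CPM in stage 2 AB. In apices, Aa_G234670 had 68.2, 75.8 and 46.2 CPM at stage 3, against 239, 209.8 and 181 CPM at stage 2. Every apex library of stage 3 was less than every one of stage 2 and of either bud stage, and the interaction was 1.45 ± 0.23 (adjusted p = 0.00135). The one on chromosome 4 (Aa_G158280) had 76.1 to 93.2 CPM in stage 3 AB and 72.5 to 88.5 CPM in stage 2 AB, beside 46.6 to 60.2 CPM in stage 3 SAM and 99.5 to 116.8 CPM in stage 2 SAM (interaction 1.11 ± 0.17). The one on chromosome 5 (Aa_G207710; interaction 0.73 ± 0.18) lost its call without stage 2 SAM replicate 1, at 0.61. A gene described as MAF3 (Aa_G476870), of the FLC family, had an interaction of 0.87 ± 0.22 and was called in 7 of the 12 fits that left out 1 library. It lost its call without stage 3 AB replicate 1 (0.65), stage 2 AB replicate 2 (0.85) or 3 (0.84), stage 3 SAM replicate 3 (0.84) and stage 2 SAM replicate 1 (0.79). FLC itself (Aa_G579940), the vernalization repressor, fell in both tissues. It had 4.29, 2.74 and 2.26 CPM in stage 3 AB, against 15.97, 13.8 and 12.2 CPM in stage 2 AB, and in apices 3.33, 2.79 and 1.41 CPM at stage 3, against 16.6, 15.2 and 17.4 CPM at stage 2. Its interaction of 0.50 ± 0.32 was not called (adjusted p = 0.386).

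Of the 18 tested floral integrators and age pathway genes, 5 were called negative and 1 positive, with a median interaction of -0.21. All 6 were squamosa promoter-binding family genes, and 3 of the 5 kept their call in every such fit. A gene of that family (Aa_G230760; chromosome 4, 48721407 to 48723245, forward strand) had 16.2, 14.3 and 16.6 CPM in stage 3 AB, against 11.8, 17.3 and 16.8 CPM in stage 2 AB. In apices, Aa_G230760 had 148, 115 and 214 CPM at stage 3, against 36.2, 39.7 and 47.8 CPM at stage 2. It rose in the apex alone, where the stages did not overlap, and the interaction was -1.91 ± 0.31 (adjusted p = 0.00222). Another (Aa_G345840) rose in both tissues and more in the apex, with 10.1 to 14.2 CPM in stage 3 AB and 5.76 to 6.499 CPM in stage 2 AB, beside 50.3 to 76.96 CPM in stage 3 SAM and 12.1 to 13.4 CPM in stage 2 SAM. Its interaction of -1.41 ± 0.32 lost its call without stage 3 AB replicate 1, at -1.32. A second SPL10 gene (Aa_G215080) had a called fall in the bud, with 33.9 to 38.4 CPM in stage 3 AB and 58.6 to 68.1 CPM in stage 2 AB. In apices it had 59.3 to 70.4 CPM at stage 3 and 51.9 to 59.1 CPM at stage 2 (interaction -1.09 ± 0.18). Its apex step was not called, though every stage 3 apex library was above stage 2. SOC1 (Aa_G15970) rose by 1.29 ± 0.20 in the bud and 1.28 ± 0.19 in the apex, and its interaction of 0.00 ± 0.26 was not called. An SPL4 gene (Aa_G381970) was higher in every stage 3 apex library than at stage 2, with overlapping bud stages. Its interaction was not called in the unpaired fit, but was by limma on log2(TPM + 1) (-2.61, adjusted p = 0.0112). Another SPL4 gene (Aa_G438780) was lower in every stage 3 bud library than at stage 2, with overlapping apex stages.

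LFY (Aa_G61540), which gives a meristem its floral identity, had 1.98, 1.94 and 2.4 CPM in stage 3 AB, against 1.99, 1.19 and 1.54 CPM in stage 2 AB. In apices, LFY had 24.2, 14.6 and 20.7 CPM at stage 3, against 5.49, 6.71 and 6.35 CPM at stage 2. Every stage 3 apex library was above stage 2, while the bud stages overlapped. The interaction was -1.27 ± 0.36 (adjusted p = 0.0494) but of the 12 fits that left out 1 library it was called in 1, that without stage 3 SAM replicate 2. Over the 12 fits it lay within -1.43 to -1.06. FUL (Aa_G862480) was listed at 0.264, 0.2002 and 0.212 CPM in stage 3 AB and 0 in every stage 2 AB library. In apices, FUL had 9.51, 7.58 and 25.9 CPM at stage 3, against 0, 0.0545 and 0 CPM at stage 2. Its interaction was not called by edgeR, paired or not (unpaired adjusted p = 0.978). It was called negative by DESeq2 (adjusted p = 0.045), by limma on log2(TPM + 1) (adjusted p = 5.33e-06) and by limma on log2(TPM + 0.1) (adjusted p = 0.000214). Of the 8 tested genes of floral meristem and organ identity, LFY was the 1 called, and the paired fit called 2, both negative. The summed level of these 8 genes was 41.6 to 48.8 CPM in stage 3 AB, 45.4 to 48.2 in stage 2 AB, 87.3 to 103 in stage 3 SAM and 52.7 to 66.8 in stage 2 SAM, so stage 3 SAM stood above the other groups.

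Gibberellin genes went both ways, with 3 positive and 3 negative calls among 24 tested members. A gibberellin 2-oxidase (Aa_G655020), which inactivates gibberellin, had 160.3, 126 and 120.4 CPM in stage 3 AB, against 137, 74.9 and 73.3 CPM in stage 2 AB. In apices, Aa_G655020 had 14.3, 16.4 and 24.5 CPM at stage 3, against 1.97, 3.11 and 1.63 CPM at stage 2. The apex rose by 3.01 ± 0.32 and stayed far below the bud, where the stages overlapped, an interaction of -2.50 ± 0.39 (adjusted p = 0.00208). A gibberellin 20-oxidase (Aa_G598100), of gibberellin synthesis, had 18.3, 15.4 and 16.6 CPM in stage 3 AB, against 16.7, 14.6 and 11.7 CPM in stage 2 AB. In apices, Aa_G598100 had 2.22, 1.33 and 0.248 CPM at stage 3, against 0.0533, 0.109 and 0 CPM at stage 2, where the 3 libraries together held 3 counts. Its negative interaction was called (adjusted p = 0.0116), but not in the paired fit (adjusted p = 0.0514), and no fold is given against 3 counts. A gibberellin 3-oxidase (Aa_G408940), of the last step of synthesis, was the reverse case, with 1.52, 1.33 and 4.38 CPM in stage 3 AB, against 0, 0.1398 and 0.0698 CPM in stage 2 AB. In apices, Aa_G408940 had 2.72, 2.33 and 2.81 CPM at stage 3, against 1.39, 0.927 and 1.33 CPM at stage 2. Its positive interaction had an adjusted p of 0.0102. The other 3 calls, among them the DELLA repressor RGA1 (Aa_G736670; 0.51 ± 0.14), did not hold in every fit that left out 1 library. RGA1 lay within 0.45 to 0.62 over these fits and was called in 5 of them.

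**Figure D3:**
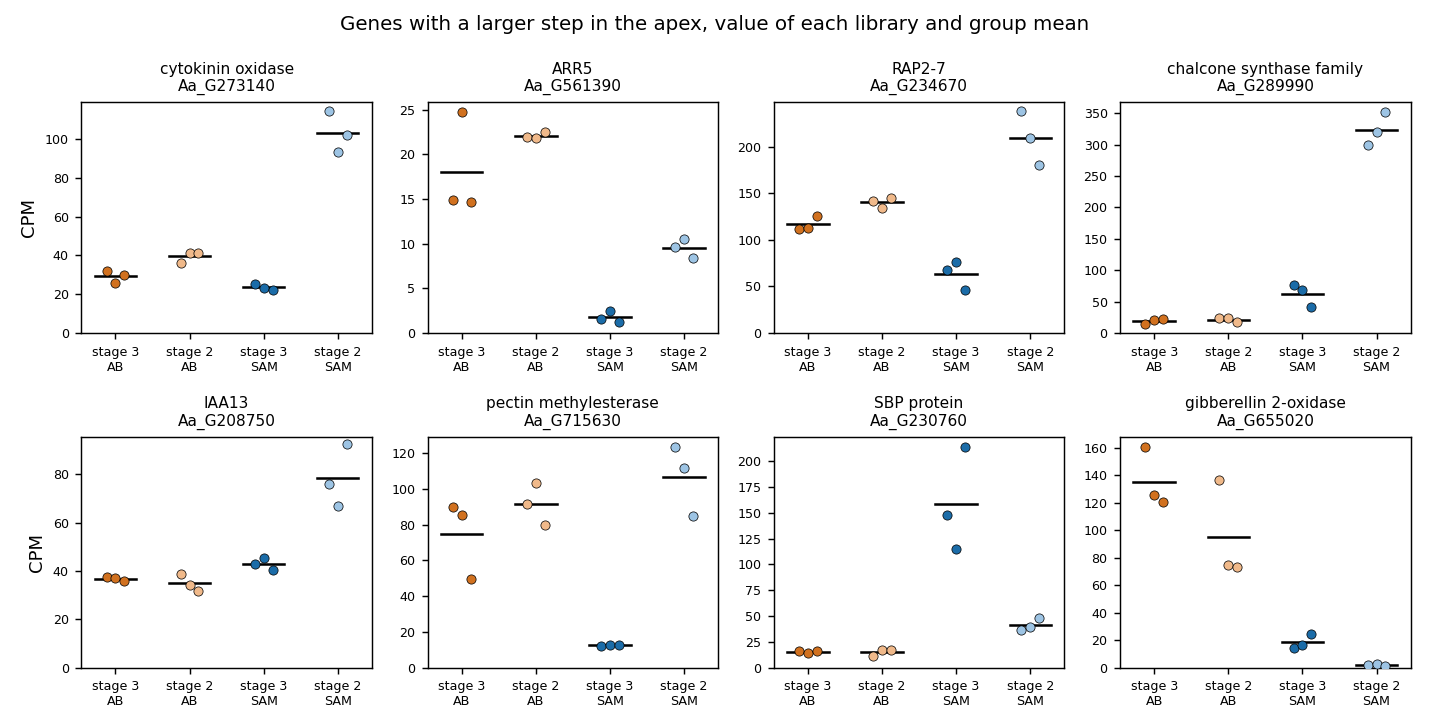
Normalised level (CPM, linear axis from 0) of 8 genes whose step was larger in the apex; each point is 1 library, each horizontal line the mean of 3, in the order stage 3 AB, stage 2 AB, stage 3 SAM and stage 2 SAM. The first 6 genes fell in SAM, as for the cytokinin oxidase Aa_G273140, and the last 2 rose in it, while the AB stages overlapped or differed less.

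The phenylpropanoid list had 8 positive and 2 negative calls among 57 tested members, with a median interaction of 0.22. Of these, 5 positive and 2 negative calls were kept in every fit that left out 1 library. In the apex 18 members fell and 7 rose, and in the bud 7 fell and 7 rose. The shares of all genes were 12.3% and 11.9% in the apex, and 12% and 10.2% in the bud. This pathway makes flavonoids and lignin from phenylalanine, and genes from several of its steps fell in the apex. A chalcone synthase family gene (Aa_G289990), at the entry to flavonoids, had 14.9, 20.4 and 21.7 CPM in stage 3 AB, against 23.6, 23.9 and 16.9 CPM in stage 2 AB. In apices, Aa_G289990 had 77.2, 69.3 and 41.3 CPM at stage 3, against 299, 321 and 352 CPM at stage 2. The bud was low and its stages overlapped, while the apex step was -2.37 ± 0.20, an interaction of 2.19 ± 0.29 (adjusted p = 0.000579). Flavanone 3-hydroxylase (Aa_G122450), a later step, had 14.9 to 16.7 CPM in stage 3 AB and 17.8 to 22.01 CPM in stage 2 AB, beside 20.9 to 31.5 CPM in stage 3 SAM and 115 to 136 CPM in stage 2 SAM (interaction 1.85 ± 0.27). Cinnamate 4-hydroxylase (Aa_G552340), which acts before the branch to lignin, had an interaction of 1.02 ± 0.21 and an apex step of -1.13 ± 0.14. Cinnamyl alcohol dehydrogenase (Aa_G737720), of lignin synthesis, had an interaction of 2.21 ± 0.38 and an apex step of -1.72 ± 0.28.

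The 2 negative members were flavonol synthase genes within a short stretch of chromosome 1, and reads may be shared between such near copies. One (Aa_G296060; chromosome 1, 29458479 to 29470391, forward strand) had 0.132, 0.0667 and 0.353 CPM in stage 3 AB, against 5.83, 1.47 and 4.33 CPM in stage 2 AB. In apices, Aa_G296060 had 1.89, 3.19 and 5.13 CPM at stage 3, against 0.213, 0.218 and 0.967 CPM at stage 2. It fell in the bud and rose in the apex, with an interaction of -7.23 ± 0.87 (adjusted p = 0.000132) on 8 counts in stage 3 AB and 24 in stage 2 SAM. The other (Aa_G1007590; chromosome 1, 29479160 to 29480006, forward strand) had 0 counts in stage 3 AB and 29 in stage 2 AB, and taking 3 counts over a group as the floor it was at least 9.87-fold lower in stage 3 AB.

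Among the transcription factor families, the WRKY list had 6 positive and 1 negative calls of 44 tested, the ERF and DREB list 7 and 1 of 77, and the NAC list 3 and 2 of 46. On log2(TPM + 1), limma called 2 and 0, 6 and 5, and 4 and 4 in these 3 lists. These families hold many regulators of stress and defence. Of these calls, 1 WRKY, 3 ERF or DREB and 2 NAC genes kept theirs in every fit that left out 1 library. The positive ERF and DREB calls include the RAP2-7 genes Aa_G234670, Aa_G158280 and Aa_G207710, counted above among the floral repressors. Of these, Aa_G234670 and Aa_G158280 are among the ERF or DREB genes that kept their call. The WRKY gene (Aa_G252340) had 5.75, 6.41 and 7.06 CPM in stage 3 AB, against 4.93, 3.84 and 3.77 CPM in stage 2 AB. In apices, Aa_G252340 had 5.95, 7.12 and 4.799 CPM at stage 3, against 22.5, 19.8 and 26.9 CPM at stage 2. Its stages did not overlap in either tissue, though only the apex step was called, and the interaction was 2.56 ± 0.38 (adjusted p = 0.000732). A NAC domain gene (Aa_G349780) had 22.7 to 27.8 CPM in stage 3 AB and 26.04 to 37.4 CPM in stage 2 AB, beside 9.52 to 14.8 CPM in stage 3 SAM and 36.6 to 44.6 CPM in stage 2 SAM (interaction 1.43 ± 0.24). WRKY22 (Aa_G55810) varied widely between libraries of a group. It had 4.49, 0.601 and 0.282 CPM in stage 3 AB, against 0.411, 0 and 0 CPM in stage 2 AB. In apices, Aa_G55810 had 0 in all 3 stage 3 libraries, against 6.02, 6.38 and 0.725 CPM at stage 2. Its call held in 3 of the 12 fits, those without stage 3 AB replicate 2 or 3 and stage 2 SAM replicate 3. The defence marker PR1 (Aa_G105040) had 7.46, 0.734 and 0.353 CPM in stage 3 AB, against 0.137, 0.0699 and 0.209 CPM in stage 2 AB. In apices, PR1 was at 0 in all 3 stage 3 libraries, against 15.7, 11.1 and 0.121 CPM at stage 2. Its call held in 2 of the 12 fits, those without stage 3 AB replicate 3 and stage 2 SAM replicate 3. In both genes stage 3 AB replicate 1 was the highest bud library and stage 2 SAM replicate 3 the lowest of its group.

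Wounding and jasmonate genes, which could mark handling during dissection, had 1 positive and 1 negative call among 28 tested, and 4 and 1 in the paired fit, with a median interaction of 0.57. Their summed level was 991 to 1463 CPM in stage 3 AB, 1248 to 1503 CPM in stage 2 AB, 593 to 819.7 CPM in stage 3 SAM and 965 to 1364 CPM in stage 2 SAM. Stage 3 SAM was below the other 3 groups with no overlap. Its part in the calls was not tested. With the 1 member that had an empty group at its bound, the median interaction was 0.47. A gene like MYC2 (Aa_G324640), a central jasmonate factor, had 108 to 121 CPM in stage 3 AB and 86.8 to 115 CPM in stage 2 AB, beside 85.3 to 105 CPM in stage 3 SAM and 116 to 146 CPM in stage 2 SAM (interaction 0.67 ± 0.14). The protein kinase SRK2E (Aa_G432470), which carries abscisic acid signals, was the 1 of 32 abscisic acid genes called, at 0.68 ± 0.11, and the paired fit called 2 positive and 1 negative.

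Cell wall loosening genes had 5 positive and 2 negative calls among 84 tested, of which 3 positive ones kept their call in every such fit. The paired fit called 7 positive and 6 negative, and limma on log2(TPM + 1) 3 and 7, so the counts in each direction differ between fits. The limma counts have no share of all genes beside them. A pectin methylesterase (Aa_G715630), which modifies the pectin of the wall, had 89.7, 85.5 and 49.8 CPM in stage 3 AB, against 91.3, 103 and 79.7 CPM in stage 2 AB. In apices, Aa_G715630 had 12.2, 12.5 and 12.8 CPM at stage 3, against 124, 112 and 85.03 CPM at stage 2. The bud stages overlapped and the tissues overlapped at stage 2, but at stage 3 every apex library was below every bud library (interaction 2.81 ± 0.56, adjusted p = 0.0113). Expansin A4 (Aa_G359280), a wall-loosening protein, had 139 to 167 CPM in stage 3 AB and 152 to 196 CPM in stage 2 AB, beside 15.3 to 18.4 CPM in stage 3 SAM and 57.5 to 73.1 CPM in stage 2 SAM (interaction 1.72 ± 0.32). A polygalacturonase-like gene (Aa_G80990), which cuts pectin, had an interaction of 1.22 ± 0.24 and an apex step of -1.31 ± 0.17. The growth regulator GRF4 (Aa_G668300) likewise fell in the apex alone, with an apex step of -0.83 ± 0.10 and an interaction of 0.70 ± 0.14.

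Of 172 cytosolic ribosomal protein genes tested, 5 were called negative and 1 positive. The paired fit called 44 negative and 1 positive, and DESeq2 16 and 1, so the count depends on the fit. The list's median interaction was -0.29, against -0.01 over all genes tested, and 84 members had an unadjusted p of at most 0.05, beside the 21.1% of all genes. In the apex 83 members rose and 5 fell, and in the bud 6 rose and 9 fell. Among all genes 11.9% rose and 12.3% fell in the apex, and 10.2% and 12% in the bud. The summed level was 43960 to 53490 CPM in stage 3 AB, 45700 to 51710 CPM in stage 2 AB, 61700 to 67630 CPM in stage 3 SAM and 47800 to 57230 CPM in stage 2 SAM. Every stage 3 SAM library was thus above every library of the other groups. None of the 5 negative genes kept its call in every such fit. The 1 positive gene, a 40S protein S4 (Aa_G383750), went against the list, at 24.7 to 55.8 CPM in stage 3 AB and 15.9 to 23.9 CPM in stage 2 AB, beside 0.579 to 1.28 CPM in stage 3 SAM and 3.08 to 4.91 CPM in stage 2 SAM. Ribosomal proteins have near copies that can share reads, so single genes are uncertain.

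DNA replication genes had 2 negative calls among 79, with a median interaction of -0.16, and neither call held in every such fit. The paired fit called 5, DESeq2 6, all negative, and 26 had an unadjusted p of at most 0.05, beside the 21.1% of all genes. In the bud 17 of them fell and 2 rose, against 5 and 7 in the apex. Over all genes 12% fell and 10.2% rose in the bud, against 12.3% and 11.9% in the apex. Of 18 D-type cyclins and inhibitors of cyclin-dependent kinases, 3 were called positive and 1 negative. Of these, cyclin delta-3 (Aa_G97330) and cyclin-dependent kinase inhibitor 3 (Aa_G138980), of a family that holds back the cell cycle, kept their positive call in every such fit. The inhibitor had 30.4 to 37.7 CPM in stage 3 AB and 33.6 to 40.2 CPM in stage 2 AB, beside 39.97 to 42.6 CPM in stage 3 SAM and 63.4 to 74.5 CPM in stage 2 SAM (interaction 0.68 ± 0.12). Both fell in the apex. The negative call was another gene described as cyclin delta-3 (Aa_G253070), with 27.7 to 31.2 CPM in stage 3 AB and 25.5 to 29.2 CPM in stage 2 AB, beside 34.99 to 37.6 CPM in stage 3 SAM and 23.7 to 27.9 CPM in stage 2 SAM. It rose in the apex alone (interaction -0.43 ± 0.11), and was called in 6 of the 12 fits that left out 1 library (-0.49 to -0.36) and not with the 12 libraries alone.

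In the meristem maintenance list, ATH1 was the 1 of 21 tested members called. The CUC2-like gene (Aa_G141220), which marks organ boundaries, was the 1 of 10 boundary genes called, at 0.99 ± 0.26, and its call did not hold in every fit that left out 1 library (0.80 to 1.15). It was lost without stage 3 AB replicate 3, stage 2 AB replicate 3, stage 3 SAM replicate 1 and stage 2 SAM replicate 1. In the leaf growth list 2 of 25 were called, GRF4 above and AS1 (Aa_G576750), a repressor of meristem genes in leaves, at 0.53 ± 0.12. Mitosis had 1 call of 53, the circadian clock 1 of 18 and histones 1 positive and 1 negative of 26. Vernalization and Polycomb genes had 0 calls of 16 with edgeR, 4 with an unadjusted p of at most 0.05 (21.1% of all genes) and 0 with DESeq2 or limma. The paired fit called 1 of these 16, 2 positive and 3 negative histones, and as many mitosis and clock genes as the unpaired one. The 1 strigolactone gene tested, carotenoid cleavage dioxygenase 7 (Aa_G175240), had 9.58, 7.47 and 6.21 CPM in stage 3 AB, against 1.51, 2.38 and 1.396 CPM in stage 2 AB. In apices, Aa_G175240 was at 0 in all 3 stage 3 libraries, against 0.0533, 0.0545 and 0 CPM at stage 2. Its interaction was called neither by edgeR (adjusted p = 0.252) nor by DESeq2 (adjusted p = 0.174), but was called positive by limma on log2(TPM + 1) (adjusted p = 0.000246) and on log2(TPM + 0.1) (adjusted p = 0.0306).

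Of 31 auxin-inducible SAUR genes tested, 1 was called, negative, and 1 in each direction in the paired fit. The negative one of the unpaired fit (Aa_G64780) had 1.39, 1.47 and 0.918 CPM in stage 3 AB, against 2.12, 1.96 and 1.396 CPM in stage 2 AB. In apices, Aa_G64780 had 1.22, 2.19 and 4.39 CPM at stage 3, against 0.373, 0.436 and 0.725 CPM at stage 2. At stage 3 the tissues overlapped, while at stage 2 every bud library was above every apex library. The SAUR list's median interaction was 0.44, but -0.57 with the 16 members that had an empty group at their bound, so it gives no direction.

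**Figure D4:**
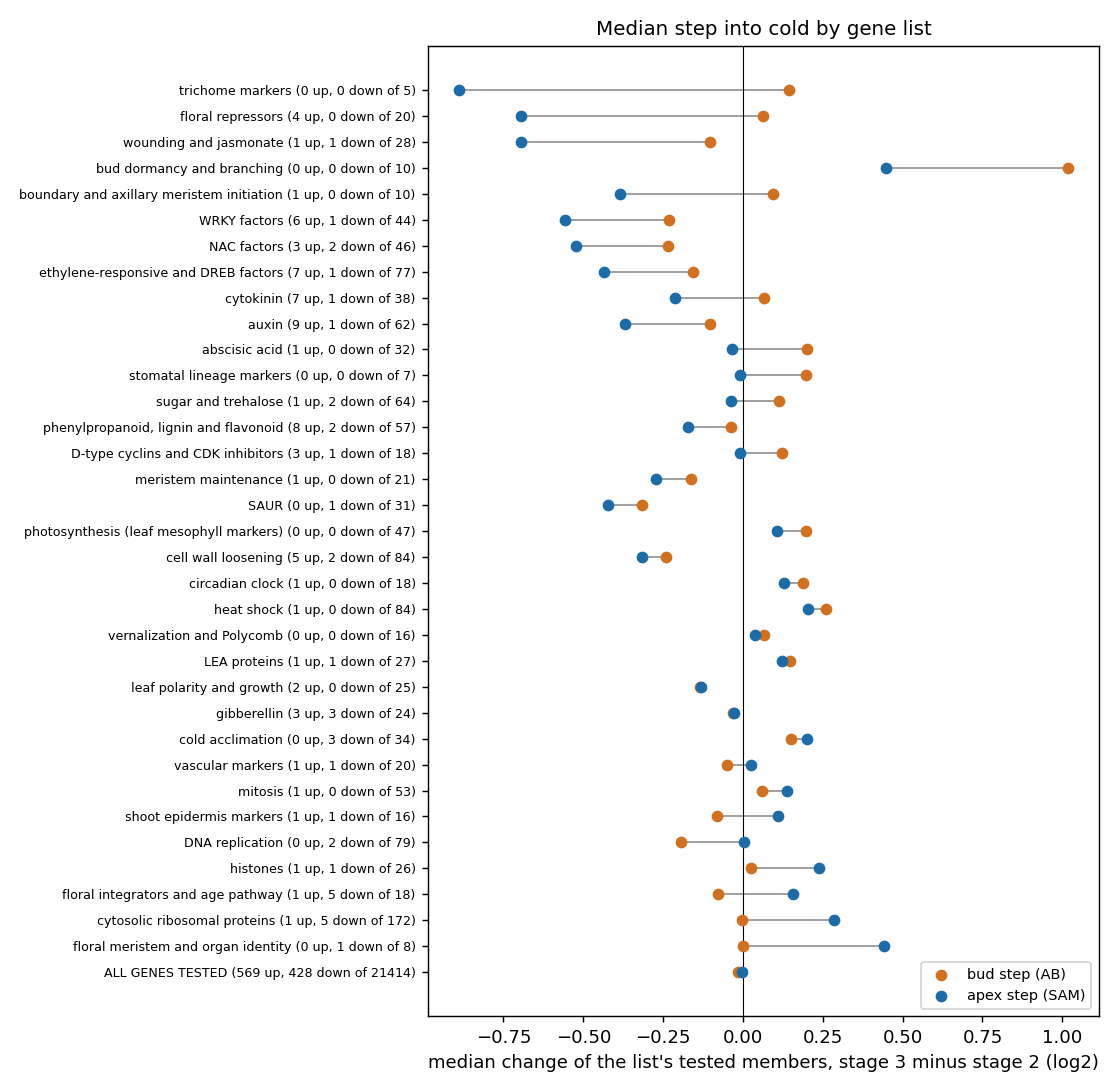
Median change on entering cold of the tested members of each gene list (log2, stage 3 minus stage 2), with the bud step in orange and the apex step in blue; labels give the number called up and down in the interaction of the number tested. All genes tested are at the bottom, with medians near 0, and the floral repressors had an apex median of -0.70 beside a bud median of 0.06.

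Of 34 tested cold acclimation genes, 3 were called negative and none positive, with 8 at an unadjusted p of at most 0.05 (21.1% of all genes) and a median interaction of 0.03. DESeq2 called 3 negative and 0 positive, the paired fit 5 and 1, and limma 4 and 1 on log2(TPM + 1) and 2 and 1 on log2(TPM + 0.1). In the bud 7 members rose and 5 fell, and in the apex 7 rose and 1 fell. For all genes these shares were 10.2% and 12% in the bud, and 11.9% and 12.3% in the apex. COR27 (Aa_G595780) rose by 2.21 ± 0.35 in the bud and 2.53 ± 0.37 in the apex, with an interaction of -0.33 ± 0.50 (adjusted p = 0.75). A gene described as cold resistance protein 1 (Aa_G56450) had 54.1 to 132 CPM in stage 3 AB and 15.4 to 19.8 CPM in stage 2 AB, beside 11.1 to 32.3 CPM in stage 3 SAM and 2.56 to 3.505 CPM in stage 2 SAM. Its interaction of -0.63 ± 0.55 was not called (adjusted p = 0.548). An ERD7 gene (Aa_G249600) was called at -0.92 ± 0.22 and lost its call without stage 3 SAM replicate 3 (-0.80) and without stage 2 SAM replicate 1 (-0.89). Of 84 heat shock genes 1 was called, of 27 LEA protein genes 2 and of 64 sugar and trehalose genes 3. The paired fit called 3 heat shock genes and, of the sugar genes, 1 positive and 7 negative, where limma on log2(TPM + 1) called 3 and 1. Sucrose phosphate synthase (Aa_G259200), of sucrose synthesis, had 0.661 to 1.601 CPM in stage 3 AB and 2.33 to 2.87 CPM in stage 2 AB, beside 2.19 to 3.06 CPM in stage 3 SAM and 2.18 to 2.45 CPM in stage 2 SAM (interaction -1.48 ± 0.33). None of the 10 tested genes of bud dormancy and branching was called by edgeR, with 3 at an unadjusted p of at most 0.05 (21.1% of all genes). DESeq2 called 0, but the paired fit called 2 negative and limma on log2(TPM + 1) 1 positive. A gene of the dormancy marker DRM1 (Aa_G438760) had 1111, 858 and 754 CPM in stage 3 AB, against 332, 145 and 67.1 CPM in stage 2 AB. In apices, Aa_G438760 had 239.8, 384 and 266 CPM at stage 3, against 38.4, 16.1 and 11.5 CPM at stage 2. It rose in both tissues, and its interaction was -1.42 ± 0.66 (adjusted p = 0.234) in the unpaired fit. In the paired fit it was called, at -1.35 (adjusted p = 0.0153). Another DRM1 gene (Aa_G430660) was higher in every stage 3 bud library than at stage 2, while its apex stages overlapped.

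Among genes with at least 10 counts in each group and an informative description, the 12 largest positive interactions lay between 3.25 and 7.98, and the 12 largest negative ones between -4.65 and -3.10. The largest positive one, a gene like desiccation-related PCC13-62 (Aa_G418790; 7.98 ± 2.11), was called in 3 of the 12 fits that left out 1 library, within 6.31 to 8.72. These 3 fits lacked stage 3 AB replicate 2 or 3 or stage 2 SAM replicate 3. It had 88.2, 13.8 and 9.46 CPM in stage 3 AB, against 6.65, 5.45 and 7.54 CPM in stage 2 AB. In apices, Aa_G418790 had 1.22, 0.532 and 0.331 CPM at stage 3, against 42.8, 49.8 and 7.55 CPM at stage 2. Stage 3 AB replicate 1 and stage 2 SAM replicate 3 stood apart from the rest of their groups. Of the 12 positive genes 4 kept their call in every such fit, and of the 12 negative ones 9. OVATE family protein 1 (Aa_G264600), of a family of growth repressors, had 3.24, 4.27 and 6.71 CPM in stage 3 AB, against 3.02, 2.38 and 2.65 CPM in stage 2 AB. In apices, Aa_G264600 had 4.17, 5.92 and 3.06 CPM at stage 3, against 28.5, 21.9 and 21.3 CPM at stage 2. At stage 3 the tissues overlapped, which they did not at stage 2, and the interaction was 3.25 ± 0.53 (adjusted p = 0.00222).

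A cytochrome P450 family gene (Aa_G93360; 4.37 ± 0.69), a GEM-like gene (Aa_G104800; 3.33 ± 0.66) and a family 1 glycosyl hydrolase (Aa_G236570; 3.43 ± 0.74) were the other 3 positive genes. Each fell in the apex with overlapping bud stages. The neighbouring glycosyl hydrolase (Aa_G236580; 3.31), next to it on chromosome 5, was also called, in 5 of the 12 fits and within 2.95 to 3.74. On the negative side, a gene like flavonol sulfotransferase (Aa_G560110) had 0.528, 0.601 and 0.494 CPM in stage 3 AB, against 7.47, 0.978 and 10.3 CPM in stage 2 AB. In apices, Aa_G560110 had 1.001, 0.865 and 1.16 CPM at stage 3, against 0.373, 0.273 and 0.725 CPM at stage 2. Its interaction of -4.65 ± 0.87 (adjusted p = 0.0043) came with a called fall in the bud. A GDSL esterase or lipase (Aa_G605090) rose in the apex alone, with 0.595 to 1.53 CPM in stage 3 AB and 0.628 to 1.12 CPM in stage 2 AB, beside 2.53 to 4.39 CPM in stage 3 SAM and 0.121 to 0.436 CPM in stage 2 SAM. An S-adenosylmethionine-dependent methyltransferase (Aa_G621950) did so too, with an interaction of -3.62 ± 0.67. Nicotianamine synthase (Aa_G356880), which makes a metal chelator, rose in the apex, at 1.903 to 3.78 CPM in stage 3 SAM and 0.109 to 0.267 CPM in stage 2 SAM. In buds it had 43.5 to 83.7 CPM at stage 3 and 85.6 to 134 CPM at stage 2, and its call held in 5 of the 12 fits (-4.92 to -4.29).

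In 21 of the 997 genes 1 or more groups had no count at all. IDA-LIKE 3 (Aa_G309200), a small peptide gene of a family that acts in organ shedding, had 1.78, 1.601 and 1.62 CPM in stage 3 AB, against 3.02, 4.89 and 4.82 CPM in stage 2 AB. In apices, IDA-LIKE 3 was at 0 in all 3 stage 3 libraries, against 0.426, 0.872 and 0.846 CPM at stage 2, at least 10.8-fold lower by the same floor. Stage 3 was thus below stage 2 in both tissues, and the interaction was positive (adjusted p = 0.0068). A geranyl diphosphate synthase gene (Aa_G489800), of terpenoid synthesis, was at 0 in stage 3 AB, against 0.0685, 0.1398 and 0 CPM in stage 2 AB. In apices, Aa_G489800 had 2.89, 2.13 and 4.14 CPM at stage 3, against 0, 0 and 0.0604 CPM at stage 2. Of its counts, 134 were in stage 3 SAM and 4 in the other groups, and its negative call was lost without stage 2 AB replicate 2 and in the paired fit (adjusted p = 0.0501).

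The libraries of stages 1 and 4 took no part in the contrast and show the same genes at other times. Calls at these stages still come from the same fit, with the same estimate of spread for each gene. Genes of low spread are called more readily in both, so the shares below are not independent of the interaction. At stage 1, in 4-week-old plants, 509 of the 997 genes (51.1%) differed between AB and SAM, against 32.8% of all genes tested. Of the 569 positive genes, AB was lower in 182 (32.0%; 14.6% of all genes) and higher in 96 (16.9%; 18.2% of all). Of the 428 negative genes, AB was higher in 202 (47.2%) and lower in 29 (6.78%). In the paired fit, AB was lower in 282 of the 906 positive genes and higher in 328 of the 796 negative ones. The share of all genes in that fit is not given, so these 2 counts have no background. At stage 1 the called differences thus ran opposite to the later interaction more often than with it. At stage 2 itself, whose libraries are part of the contrast, AB was lower in 265 of the positive genes (17.6% of all genes) and higher in 258 of the negative ones (19.9% of all). AB and SAM differed in 37.4% of all genes at stage 2 and in 44.2% at stage 3. Between the 2 stages, 369 of the 997 genes gained a called difference between the tissues, and 327 lost theirs. Another 202 differed at both stages with the same sign, and in 99 the sign turned. The 997 genes were picked by a change between these same libraries, so these 4 counts only describe them. No share of all genes is given beside them.

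At stage 4, after 7 weeks of cold, 102 of the 997 genes (10.2%) differed between AB and SAM, against 3.47% of all genes tested. AB was higher in 34 and lower in 43 of the 569 positive genes, and higher in 9 and lower in 16 of the 428 negative ones. The median AB minus SAM was -0.02 in the positive and -0.06 in the negative genes. In the paired fit 270 of the 1702 differed, but the share of all genes in that fit is not given. ATH1 (Aa_G58550) had 52.4 ± 6.07 CPM in AB and 44.5 ± 3.13 CPM in SAM at stage 4 (mean ± SD, n = 3 each), against 54.5 ± 2.67 CPM in AB and 176 ± 22.5 CPM in SAM at stage 1, where AB had 2 libraries. The squamosa promoter-binding gene Aa_G230760, low in stage 3 AB, had 112 ± 20.5 CPM in AB and 122 ± 19.6 CPM in SAM at stage 4. The chalcone synthase family gene Aa_G289990 had 30.6 ± 1.32 CPM in AB and 46.6 ± 5.24 CPM in SAM. The gibberellin 2-oxidase Aa_G655020 had 40.2 ± 5.07 CPM in AB and 32.6 ± 0.632 CPM in SAM. None of these 4 was called between the tissues at stage 4. SPL10 (Aa_G61880) still was, lower in AB, at 49.5 ± 9.88 CPM in AB and 83.7 ± 0.817 CPM in SAM.

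**Figure D5:**
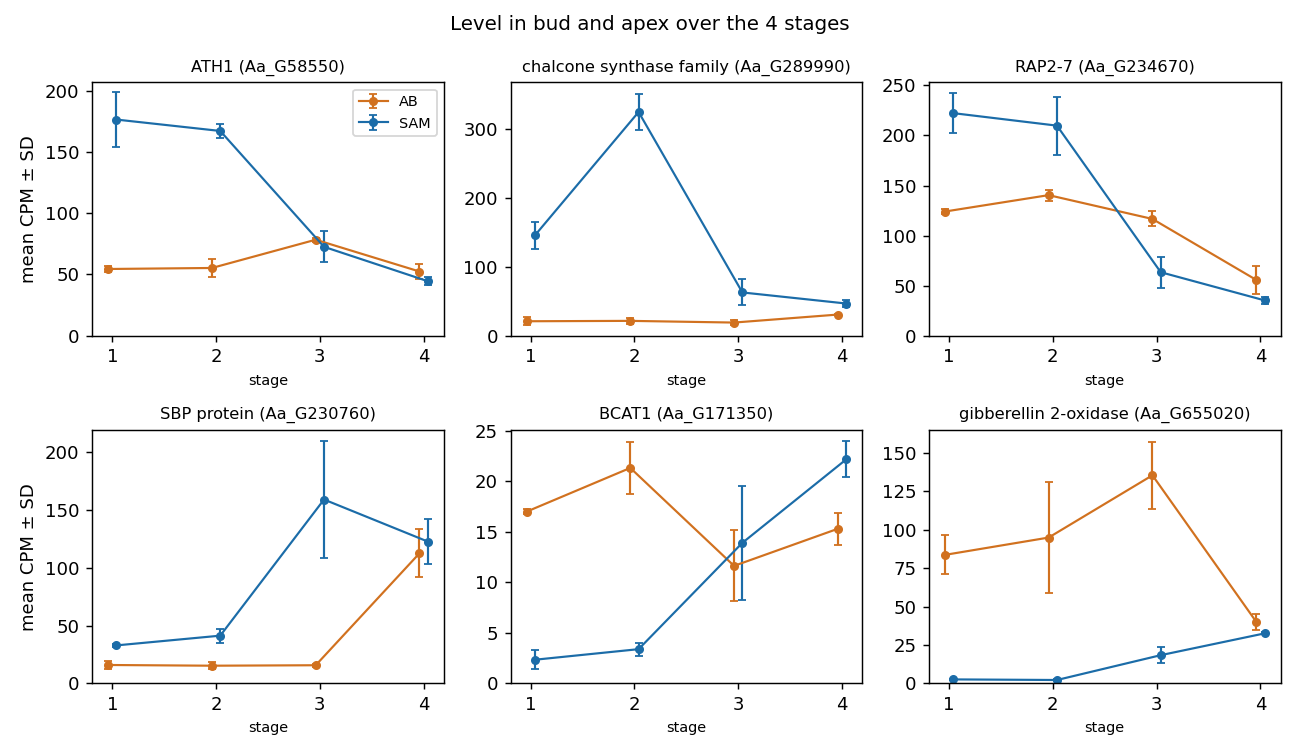
Mean normalised level (CPM ± SD, linear axis from 0) in AB (orange) and SAM (blue) over stages 1 to 4 for 6 interaction genes; n = 3 libraries, or 2 for AB at stage 1. For ATH1, AB lay far below SAM at stages 1 and 2, and at stage 4 AB and SAM had 52.4 ± 6.07 and 44.5 ± 3.13 CPM (Aa_G58550).

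Markers of other cells that the dissected tissue could hold moved as follows. Of 47 photosynthesis genes, edgeR called 0 in the interaction, 4 had an unadjusted p of at most 0.05, beside the 21.1% of all genes, DESeq2 called 2, the paired fit 3 and limma 1. Their summed level was 8587 to 11170 CPM in stage 3 AB, 7775 to 9563 in stage 2 AB, 9702 to 13320 in stage 3 SAM and 9897 to 12990 in stage 2 SAM. Of 20 vascular genes 2 were called. Their sum was 262 to 292 CPM in stage 3 AB and 285 to 300.4 in stage 2 AB, beside 246 to 269 in stage 3 SAM and 215 to 239 in stage 2 SAM, so the apex stages did not overlap. On log2(TPM + 1), limma called 1 positive and 3 negative. One of the 2, an IRX7-like gene of xylan synthesis (Aa_G629220), fell in the bud and rose in the apex (interaction -0.92 ± 0.20). Of 16 epidermis genes 2 were called, and of 5 trichome and 7 stomatal genes none, with 1 and 2 at an unadjusted p of at most 0.05 (21.1% of all genes) and 0 by DESeq2 or the paired fit. Limma on log2(TPM + 1) called 1 trichome gene positive and 1 stomatal gene negative. The stomatal sum was 53.5 to 60.99 CPM in stage 3 AB and 51.9 to 58 in stage 2 AB, beside 54.3 to 58.1 in stage 3 SAM and 61.2 to 64.5 in stage 2 SAM. Stage 3 was thus below stage 2 in every apex library, while the bud stages overlapped. The trichome and epidermis sums overlapped between stages in both tissues. The part of cell makeup in the interaction was not tested.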

How the data were processed

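The 23 libraries were single-end reads of 150 bp per the labels. The deposited table gives, per the file headers, the count of total mapped reads per gene and library, used here, and TPM values computed by the authors, used in an alternative. Another 46 columns of values by library were not used. The submitters' processing notes name FastQC. Neither the aligner, the counting tool nor the strand setting is given in the sources used here, so reads of overlapping genes on opposite strands cannot be told apart. Coordinates come from the deposited annotation (version 5 assembly), and 1217 tested genes were placed at more than 1 locus there. The members and gene lists were chosen with earlier results of these data known.

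Counts of all 23 libraries were fitted with edgeR 4.0.16 in R 4.3.3, with 1 coefficient per tissue and stage, filterByExpr (minimum count 10, minimum total 15), TMM scaling and robust dispersion. The quasi-likelihood F test was applied to the interaction, to each step and to AB minus SAM at each stage. Adjustment was by Benjamini-Hochberg over the 21414 genes tested of 34220, at a threshold of 0.05. The SE was taken from the change and its F statistic. CPM are per megaread of the TMM-scaled library. A floor of 3 counts over a group came to 0.0559 to 0.0694 CPM and covers counting error only. On simulated counts for the interaction (21236 genes), 53% of 100 genes with a log2 change of 1 and 83% of 100 with 2 were recovered, with 3 false calls. The changed genes were picked among those well counted in stage 2 AB and changed in stage 3 AB alone. All other genes had no step in either tissue, and libraries were drawn without pairing. The data differ in both respects, so these rates need not carry over to them.

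The named genes were the 12 largest interactions per direction with at least 10 counts in each group, an informative description and 1 locus. Added were the 8 genes per direction with the largest opposite steps, up to 4 called members per list and direction by p, up to 4 called genes per direction with an empty group, and fixed check genes. The 2 genes at the edge of the threshold fall outside this rule and were chosen after their values were seen. The lists covered hormone pathways, flowering, meristem, bud and leaf genes, cold, heat and drought proteins, cell cycle, histones, ribosome, clock, jasmonate, WRKY, NAC and ERF factors, cell wall, phenylpropanoids, sugars and markers of leaf, vascular, trichome, stomatal and epidermal cells. The labels give replicate numbers and name no batch. Deviations from the group means of same-numbered AB and SAM libraries of a stage correlated at 0.197 to 0.31, in 6 of 6 pairs over 0.1, so numbers were taken to pair the tissues within a stage. Between stages 4 of 12 pairs were over 0.1. The interaction was therefore also fitted with 1 term per stage and number, added after seeing the data. Other alternatives were RLE scaling, no filter, DESeq2 1.42.0, 12 libraries alone, 1 block per replicate number, non-robust fits, limma 3.58.1 on log2 TPM, and leaving out each library.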

Additional observations from a re-analysis of the deposited data

Results flagged for a closer look

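The 997 called genes drew attention because the difference between the bud step and the apex step was itself tested, by the interaction in edgeR. The 20 named genes with called steps in opposite directions are listed for the same reason, 10 positive and 10 negative.

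Genes higher at stage 3 in the bud and lower in the apex included a homeodomain gene (Aa_G223150; interaction 1.86 ± 0.31), with 27.5 to 32.6 CPM in stage 3 AB and 12.2 to 20.0 CPM in stage 2 AB, beside 3.28 to 3.33 CPM in stage 3 SAM and 5.01 to 7.67 CPM in stage 2 SAM. The stages did not overlap in either tissue. A gene like an auxin efflux carrier (Aa_G111050; 1.66 ± 0.36), of the family that exports auxin from cells, had 2.96 to 7.54 CPM in stage 3 AB and 2.47 to 3.35 CPM in stage 2 AB, beside 4.79 to 6.003 CPM in stage 3 SAM and 8.34 to 11.7 CPM in stage 2 SAM. A cysteine proteinase inhibitor (Aa_G154630; 1.91 ± 0.39), of a family that blocks papain-like proteases, had 8.41 to 10.5 CPM in stage 3 AB and 4.82 to 6.37 CPM in stage 2 AB, beside 0.745 to 1.33 CPM in stage 3 SAM and 2.23 to 2.84 CPM in stage 2 SAM. Interactions of 2.70 for a UDP-glucosyl transferase family gene (Aa_G154830), 1.996 for a sulfotransferase family gene (Aa_G560090) and 1.42 for Aa_G285860 were also positive. The same class held ATH1 (Aa_G58550) at 1.70, the cytokinin oxidase Aa_G198500 at 1.96, the zinc finger family gene Aa_G154160 at 1.59 and cyclin delta-3 (Aa_G97330) at 0.85.

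Genes lower at stage 3 in the bud and higher in the apex included a methyltransferase described as PMT20 (Aa_G78140; -1.68 ± 0.29), with 21.8 to 32.5 CPM in stage 3 AB and 37.8 to 62.1 CPM in stage 2 AB, beside 9.45 to 11.5 CPM in stage 3 SAM and 5.01 to 7.03 CPM in stage 2 SAM. The apex rose but every bud library stayed above every apex library at stage 3. A calmodulin-binding protein (Aa_G163900; -1.38 ± 0.26), of a family that answers calcium signals, had 12.8 to 16.6 CPM in stage 3 AB and 21.6 to 30.1 CPM in stage 2 AB, beside 6.28 to 9.68 CPM in stage 3 SAM and 4.42 to 6 CPM in stage 2 SAM. A glutathione S-transferase (Aa_G199670; -3.24 ± 0.76), of a family of detoxifying enzymes, had 0.991 to 1.74 CPM in stage 3 AB and 2.31 to 4.96 CPM in stage 2 AB, beside 0.50 to 1.53 CPM in stage 3 SAM and 0.32 to 0.423 CPM in stage 2 SAM. An SNF7 family gene (Aa_G130450), of membrane sorting, had an interaction of -1.60. The class also held SPL10 (Aa_G61880) at -1.62, the aminotransferase Aa_G171350 at -2.89, the AP2/ERF factor Aa_G683380 at -3.62, MARCH6 (Aa_G153960) at -1.64, the IRX7-like gene Aa_G629220 at -0.92 and the flavonol synthase Aa_G296060 at -7.23, which rests on 8 counts in stage 3 AB.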

How the results depend on the processing

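None of the 997 calls changed direction among the calls of any alternative. Leaving out 1 of the 12 libraries gave 563 to 1277 called genes, of which 318 to 673 were positive and 221 to 604 negative. The bud step had 3383 to 4967 called genes and the apex step 3661 to 5403 in these fits. The apex-only genes numbered 319 to 690, the bud-only genes 136 to 403, the opposite genes 42 to 84 and the list members called 67 to 132. Positive genes with AB lower at stage 1 numbered 118 to 196, and negative genes with AB higher there 126 to 203. For these fits, and for the other alternatives below, no share of all genes at stage 1 is given. Their stage 1 counts thus have no background. DESeq2 called 1574 genes, 877 positive and 697 negative, with 828 apex-only and 479 bud-only genes and 309 negative genes higher in AB at stage 1, and it made 991 of the 997 calls. With the 12 libraries of stages 2 and 3 alone 666 genes were called, 459 positive and 207 negative, with 155 bud-only, and 566 of the 997 calls were made. On log2(TPM + 1), limma gave 521 bud-only genes and 330 negative genes higher in AB at stage 1. There the interaction of Aa_G319730, a DREB-like gene at 0 in stage 3 SAM, was called at -1.98, against the sign of its count fit. The causes were not tested.

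The fit that pairs AB and SAM by stage and replicate number was chosen after seeing the data. It called 1702 genes with 23 libraries, 906 positive and 796 negative, with 196 list members, 282 positive genes lower and 328 negative ones higher in AB at stage 1. No share of all genes is given for its stage 1 counts. With 12 libraries it called 1596, 994 positive and 602 negative, with 194 list members, against 666 unpaired, and there Aa_G655020, Aa_G259200 and Aa_G130450 lost their calls. It gives no bud or apex step, so its genes were not classed. One block per number across stages gave 1051 called genes with 23 libraries, where Aa_G418790, PR1 and WRKY22 were not called, and 1074 with 12, where AS1, Aa_G259200 and Aa_G130450 were not called. RLE scaling gave 1002 called genes and no filter 904. Depth limits low genes: a fold against an empty group is a bound only.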
